A study of Mus musculus with 6 samples.

Results

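The genes described here are 10 components and targets of bone morphogenetic protein (BMP) signalling: the ligand gene Bmp4, the receptor genes Bmpr1a and Bmpr2, the signal transducers Smad1 and Smad5, the inhibitory Smad6, and the target genes Id1, Id2, Id3 and Id4. They were found by symbol among the 51912 Ensembl gene identifiers of the count table, and all 10 were present and passed the filter on low counts. The cells were R1, an established mouse embryonic stem cell line, kept in 2iLIF, a medium that holds the naive pluripotent state with LIF and inhibitors of MEK and GSK3. They were then moved to N2B27, which contains no serum, and given 100 ng/ml FGF2. Both groups received the same medium and the same FGF2 dose, and they differed only in its length, 24 h (3 libraries) or 48 h (3 libraries). Cells without FGF2 and cells before the move were not analysed here, so every change below is from 24 h to 48 h and cannot be told apart from the effect of time in the new medium.

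BMP ligands bind paired type I and type II receptor kinases at the cell surface. The type I receptor, such as BMPR1A, phosphorylates SMAD1 and SMAD5, which enter the nucleus with SMAD4 and activate targets that include the Id genes and the feedback inhibitors Smad6 and Smad7. ID proteins have a helix-loop-helix domain without a DNA-binding region, so they hold E proteins such as TCF3 and TCF12 away from DNA. In mouse embryonic stem cells, BMP4 and the ID proteins are known for holding back neural differentiation in serum-free culture.

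Libraries held 19574969 to 23133148 estimated counts. The 8 pluripotency markers checked, which include Pou5f1 and Sox2, all passed the filter on low counts and summed to between 4967 and 5015 CPM (a gene's share of the library's TMM-scaled total count) at 24 h and between 3580 and 3678 CPM at 48 h. Of these, 3 rose and 5 fell, against 30.9% and 31.9% of all genes tested. Nanog went from 694.7 to 174.4 CPM on average and Pou5f1 from 1111 to 1058 CPM, while Utf1 went from 201.6 to 304.8 CPM. Markers of other cell types were low: the 7 primitive endoderm markers summed to 9.36 to 11.2 CPM at 24 h and 5.67 to 6.44 CPM at 48 h, the 7 fibroblast markers to 4.05 to 6.02 and 3.13 to 4.47 CPM, and the 7 trophectoderm markers to 20.5 to 22.5 and 16.1 to 18.6 CPM, most of it from Eomes. Of the fibroblast markers, Lum was at 0 in all libraries, and Dcn was at 0 in all 24 h libraries and at 1.22 ± 0.2 CPM (SD, n = 3) at 48 h, while Pdgfrb fell from 2.06 to 0.59 CPM on average and Col1a1 from 1.03 to 0.3 CPM. Dcn passed the filter on low counts only through its 48 h libraries, the group where it is high. Col1a1, with 4, 9 and 7 counts at 48 h, passed it only through its 24 h libraries, where it is high. Cdx2, which defines trophectoderm, had at most 1 count in a library. The 7 neural markers, among them the neuronal tubulin gene Tubb3, summed to 127.8 to 137.6 CPM at 24 h and 144.6 to 156.4 CPM at 48 h. Most of the sum at 24 h came from Tubb3. Of these, 2 rose and 3 fell, against 30.9% and 31.9% of all genes tested. Sox1 went from 14.7 to 36.6 CPM on average and Pax6 from 11.6 to 33.9 CPM. Tubb3 went from 78.2 to 54.3 CPM, Nes from 26.9 to 23.6 CPM and Pou3f2 from 0.91 to 0.5 CPM. Pou3f2, with 7, 11 and 15 counts at 48 h, would not have passed the filter on low counts on its 48 h libraries alone. The part of these marker shifts in the changes below was not tested. In bulk libraries, fewer cells that express a gene and less RNA per cell cannot be told apart.

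Between 24 h and 48 h, 9 of the 10 genes changed (quasi-likelihood test of edgeR, adjusted p below 0.05), against 62.8% of the 14889 genes tested. Of these, 6 fell, against 31.9% of tested genes, and 3 rose, against 30.9%. Scaled by library size alone, 2 rose and 7 fell, and over all tested genes 3779 rose and 5694 fell, against 4600 and 4745 with TMM, as the median log2 fold change of all genes moved to -0.07. The change was both called and at least 2-fold for 5 of the 10, against 11.2% of tested genes. It was downward for Bmp4, Smad6, Id1 and Id4, against 6.63% of tested genes, and upward for Id2, against 4.59%. The values at 24 h and 48 h did not overlap for 9 of the 10, against 66.9% of tested genes. The median log2 fold change (log2FC, 48 h over 24 h) was -0.64 for the 10 genes and -0.01 for all tested genes. The counts of all 10 were whole numbers throughout, and so show no reads divided with a similar gene.

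**Figure D1:**
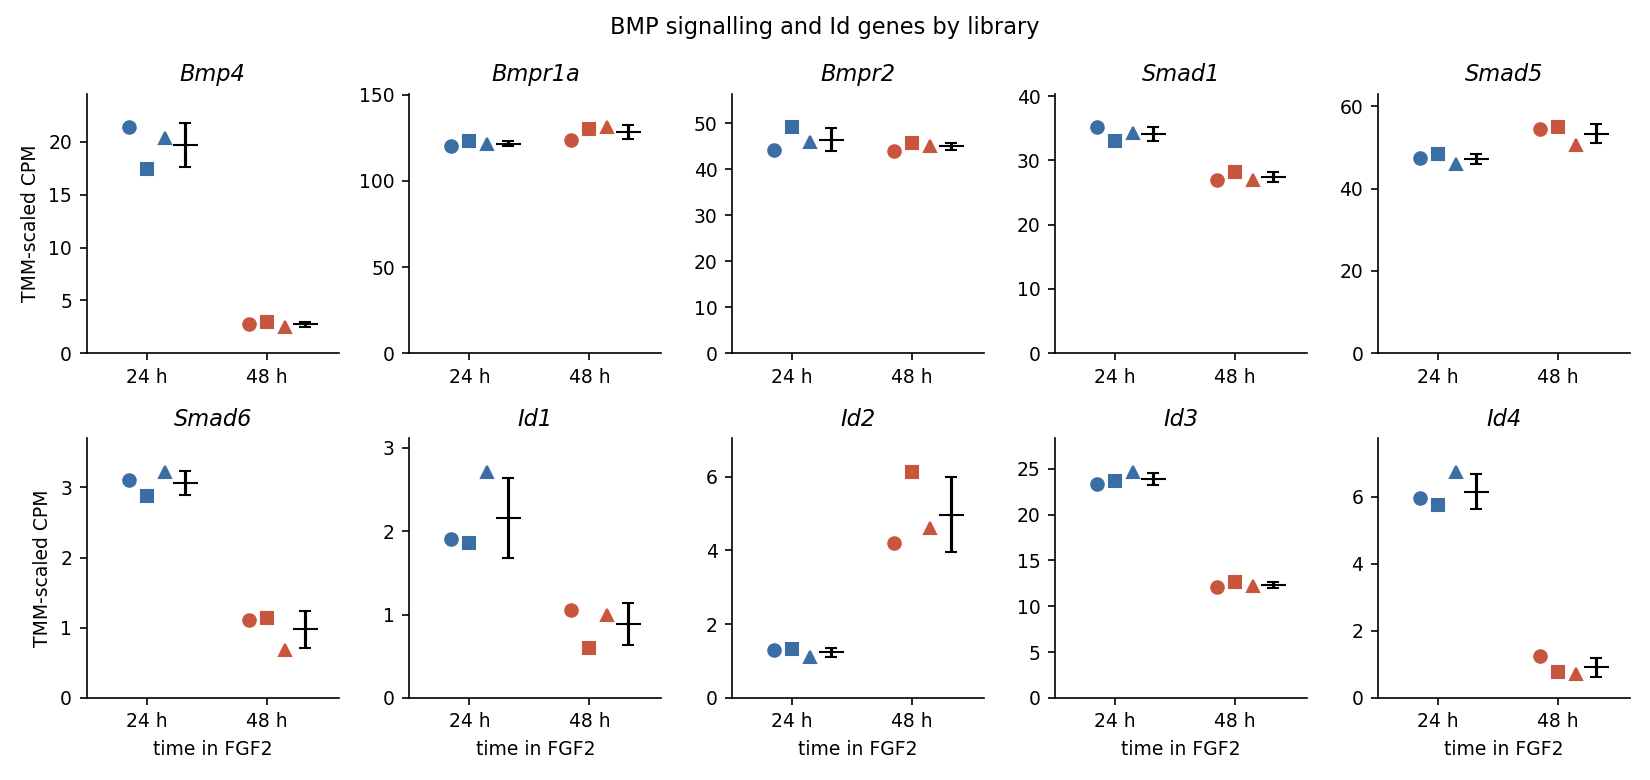
Level of each of the 10 genes in TMM-scaled CPM (y axis, from 0) in the 3 libraries of 24 h (blue) and of 48 h (red); circles, squares and triangles are replicates 1, 2 and 3, and the black mark is the mean with its SD. Bmp4, Smad6, Id1, Id3 and Id4 are lower in every 48 h library than in any 24 h library, Id2 is higher in every one, and Bmpr2 overlaps.

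Bmp4, the ligand (ENSMUSG00000021835), showed the largest change of the 10. Its gene lies on the minus strand at chr14:46383520-46390669 (GRCm38, GENCODE M21). In replicates 1, 2 and 3 it stood at 21.4, 17.4 and 20.3 CPM at 24 h and at 2.81, 2.97 and 2.48 CPM at 48 h. Every 48 h library was thus well below every 24 h library, and replicate 2 was the lowest of the first group. The mean fell 7.15-fold, from 19.7 ± 2.05 to 2.75 ± 0.25 CPM (SD, n = 3 each), a log2FC of -2.84 (SE 0.11, adjusted p = 1.13e-12). The size of this change exceeded that of 99.0% of the tested genes. Exons of Bmp4 share 89 bases with Gm15217 on the opposite strand, which had at most 1 count in a library.

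The receptor genes kept nearly the same level. Bmpr1a (ENSMUSG00000021796, chr14:34410734-34503341, minus strand) encodes a type I receptor and had 120.1, 123.2 and 121.5 CPM at 24 h and 123.7, 130.3 and 131.0 CPM at 48 h. The lowest 48 h library lay just above the highest 24 h library. The log2FC was 0.08 (SE 0.03, adjusted p = 0.0265). This call was lost with library size as the only scaling, where the log2FC was 0.02 (adjusted p = 0.619), with DESeq2 (adjusted p = 0.053), and without replicate 1 or 3 of 24 h or replicate 2 or 3 of 48 h (adjusted p from 0.063 to 0.1). Its exons share 290 bases with Gm17110 on the opposite strand, which had at most 2 counts in a library. The adjusted p of Bmpr1a ranged from 0.00538 to 0.619 over the alternatives.

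Bmpr2 (ENSMUSG00000067336, chr1:59763400-59879014, plus strand), the type II partner, had 44.2, 49.1 and 46.0 CPM at 24 h and 44.1, 45.8 and 45.1 CPM at 48 h. The groups overlapped, and the log2FC of -0.05 had a 95% interval from -0.14 to 0.05 (adjusted p = 0.369). Under library size scaling alone it was -0.11 (adjusted p = 0.0412), with a range of 0.0412 to 0.907 over the alternatives.

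The transducers Smad1 and Smad5, which carry the same signal, moved in opposite directions by small amounts. Smad1 (ENSMUSG00000031681, chr8:79338395-79399518, minus strand) had 35.1, 33.0 and 34.2 CPM at 24 h and 27.0, 28.3 and 27.0 CPM at 48 h, without overlap. It fell by 0.31 on the log2 scale (SE 0.05, adjusted p = 1.95e-05). Smad5 (ENSMUSG00000021540, chr13:56703010-56742377, plus strand) had 47.4, 48.3 and 45.9 CPM at 24 h and 54.4, 54.9 and 50.7 CPM at 48 h, again without overlap. It rose by 0.18 on the same scale (SE 0.04, adjusted p = 0.00145). Both calls held in all 15 alternatives. Exons of Smad5 share 100 bases with Gm27301 on the same strand, which had 0 counts in every library.

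Smad6, an inhibitory SMAD that BMP signalling itself induces and that blocks the type I receptor, fell 3.14-fold. Its gene (ENSMUSG00000036867, chr9:63953076-64022059, minus strand) had 3.10, 2.88 and 3.22 CPM at 24 h and 1.11, 1.14 and 0.68 CPM at 48 h. The 48 h libraries, with 15 to 25 counts, all lay below the 24 h libraries, with 59 to 76. The log2FC was -1.65 (SE 0.21, adjusted p = 3.77e-06). Bases around the RefSeq start site of Smad6 (GRCm38.p6, chr9:64022056-64022115, minus strand, the last 4 bases lying after the start) are shown because they hold a match to the SMAD palindrome GTCTAGAC, in capitals.

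Smad6 start site: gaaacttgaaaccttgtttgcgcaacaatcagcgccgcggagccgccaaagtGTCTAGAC

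The palindrome was searched in the 300-base RefSeq windows around start sites and occurred in 0.213% of 32851 windows. RefSeq windows were matched for 9 of the 10 genes, all but Id1, which was therefore not searched. Smad6 was the only one of the 9 with the palindrome.

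The 4 Id genes did not move together: Id1, Id3 and Id4 fell, while Id2 rose. Id1 (ENSMUSG00000042745, chr2:152736251-152737410, plus strand), a direct BMP target in many cell types, had 1.9, 1.86 and 2.71 CPM at 24 h and 1.06, 0.59 and 0.99 CPM at 48 h. These rest on 38 to 64 counts at 24 h and 13 to 23 counts at 48 h, and the groups did not overlap. The drop was 2.45-fold (log2FC -1.3, SE 0.26, adjusted p = 0.000422).

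Id3 (ENSMUSG00000007872, chr4:136143497-136145755, plus strand) was the Id gene with the highest level per length at both times. It had 23.4, 23.6 and 24.7 CPM at 24 h and 12.1, 12.7 and 12.2 CPM at 48 h. The replicates lay close together and the drop was 1.94-fold (log2FC -0.96, SE 0.06, adjusted p = 1.41e-09). Id4 (ENSMUSG00000021379, chr13:48261228-48266026, plus strand), which is known for roles in neural and germ cells, fell further. It had 5.96, 5.76 and 6.74 CPM at 24 h and 1.24, 0.78 and 0.72 CPM at 48 h, the latter from 16 to 27 counts. The drop was 6.72-fold (log2FC -2.75, SE 0.18, adjusted p = 1.18e-09). Its exons share 82 bases with A330033J07Rik, which had at most 1 count in a library, and 171 bases with Gm49291, both on the opposite strand.

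Id2 (ENSMUSG00000020644, chr12:25093799-25097140, minus strand) had 1.3, 1.32 and 1.1 CPM at 24 h and 4.19, 6.13 and 4.60 CPM at 48 h. All 48 h libraries were above all 24 h libraries, with replicate 2 the highest, and counts went from 26 to 27 up to 91 to 134. The rise was 4.01-fold (log2FC 2.0, SE 0.19, adjusted p = 9.52e-08). Without replicate 2 of 48 h the log2FC of Id2 was 1.83 (adjusted p = 1.67e-06), and over all alternatives it lay between 1.83 and 2.11. The rise is thus found in each 48 h library and not in replicate 2 alone.

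Promoter stretches are shown for Id2, which rose, and for Id3 and Id4, which fell. Id1 had no RefSeq window, so no stretch of it was searched or shown. Each line gives the 250 bases before the RefSeq start site (GRCm38.p6), 5′ to 3′ on the strand of the gene, at chr12:25096093-25096342 (minus strand) for Id2, chr4:136143572-136143821 (plus strand) for Id3 and chr13:48260866-48261115 (plus strand) for Id4. The Id2 and Id3 stretches lie inside the GENCODE M21 spans of these genes given above, so their motif positions hold for the RefSeq start site only. Capitals mark GGCGCC, a GC-rich word that SMAD1 and SMAD5 can bind, and the CCAAT box, which reads ATTGG where it lies on the other strand.
Id2: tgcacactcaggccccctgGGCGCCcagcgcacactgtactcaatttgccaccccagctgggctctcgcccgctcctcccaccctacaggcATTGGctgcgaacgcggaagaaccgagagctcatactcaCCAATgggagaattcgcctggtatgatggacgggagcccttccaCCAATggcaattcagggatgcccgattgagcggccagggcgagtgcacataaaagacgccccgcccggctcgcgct
Id3: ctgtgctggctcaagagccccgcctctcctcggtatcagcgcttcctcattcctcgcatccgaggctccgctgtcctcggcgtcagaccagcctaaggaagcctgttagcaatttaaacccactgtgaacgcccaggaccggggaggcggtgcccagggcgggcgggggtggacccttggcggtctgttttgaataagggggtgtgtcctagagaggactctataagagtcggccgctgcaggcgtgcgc
Id4: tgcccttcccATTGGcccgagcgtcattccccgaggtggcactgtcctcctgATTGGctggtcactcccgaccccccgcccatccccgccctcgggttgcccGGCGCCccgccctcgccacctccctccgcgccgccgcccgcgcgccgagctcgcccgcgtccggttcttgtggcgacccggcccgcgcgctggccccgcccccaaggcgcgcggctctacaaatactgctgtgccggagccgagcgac

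Both Id2, which rose, and Id4, which fell, held 1 GGCGCC and at least 2 CCAAT boxes (3 in Id2 and 2 in Id4), whereas the Id3 stretch held neither. Counted from the start site, the first base of GGCGCC is at -231 in Id2 and at -148 in Id4. Over the 9 genes with a window, 5 had GGCGCC in the 250 upstream bases of at least 1 start site (Bmpr1a, Bmpr2, Id2, Id4 and Smad5), where 9.59% of all 32851 windows had it. The Bmpr1a and Bmpr2 stretches and the word in Smad5 also lie inside the GENCODE spans of these genes. This count thus holds for RefSeq start sites only. All 11 upstream stretches of these 9 genes held more G and C than the median of all windows, 52.4%, and the highest, of Bmpr1a, held 78.8%. CCAAT occurred in 5 of the 9 genes and in 33.8% of all windows, and TATAAA in none of the 9 and in 12.4% of all windows. A gene with several start sites had more chances of a match, while the shares of all windows count each window once, so the 2 are not fully alike. Each motif was searched on both strands, and a match is only a match of letters.

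Summed over Id1 to Id4, the level per length went from 17.3 ± 0.87 CPM per kb of exon at 24 h to 9.91 ± 0.34 at 48 h (SD, n = 3 each). The 24 h libraries had 16.8, 16.8 and 18.3 and the 48 h libraries 9.71, 10.3 and 9.73. Within this sum the share of Id2 went from 2.95% ± 0.42 to 20.5% ± 3.48, and that of Id4 from 9.23% ± 0.34 to 2.41% ± 0.8. Id3 held the largest share at both times, 77.1% ± 1.7 and 69.4% ± 0.62. The share of Id1 was 10.7% ± 1.83 and then 7.72% ± 2.4, and the highest 48 h library, at 9.4%, nearly reached the lowest 24 h library, at 9.5%.

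**Figure D2:**
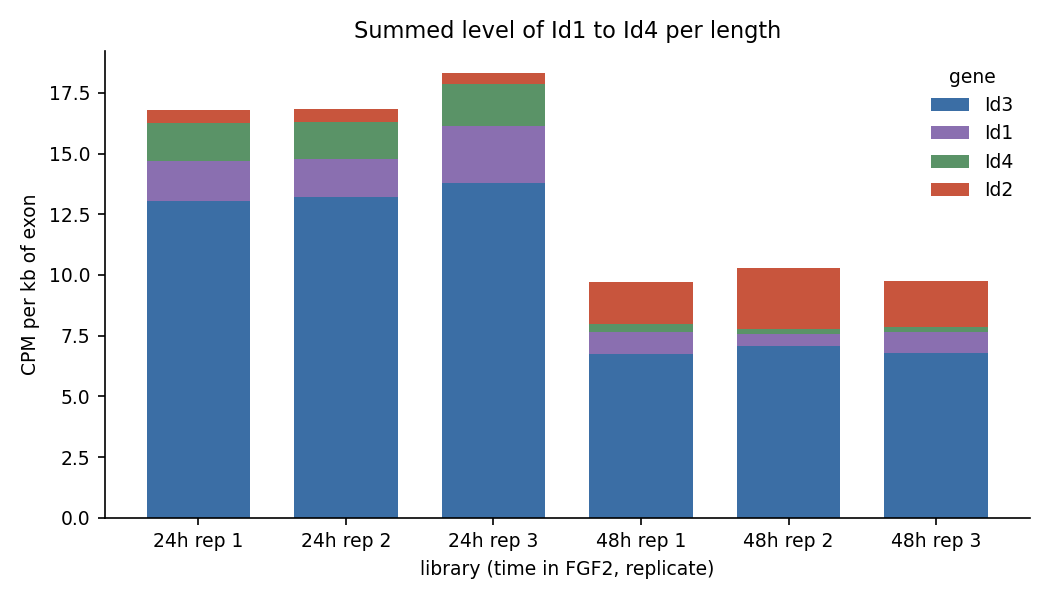
Level per length of Id3, Id1, Id4 and Id2 (stacked bars, CPM per kb of exon, from 0) in each library on the x axis. The 48 h bars reach 9.71 to 10.3 against 16.8 to 18.3 at 24 h, and the Id2 segment is the only one that is thicker at 48 h.

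Per kb of exon, the order of the 10 genes at 24 h was Bmpr1a (19.2 CPM per kb), Id3 (13.3), Bmp4 (8.77), Smad5 (6.36), Smad1 (5.45), Bmpr2 (2.58), Id1 (1.86), Id4 (1.6), Smad6 (0.96) and Id2 (0.51). Of the neighbours in this order, only Id1 and Id4 overlapped in their libraries. At 48 h it was Bmpr1a (20.2), Smad5 (7.18), Id3 (6.88), Smad1 (4.38), Bmpr2 (2.5), Id2 (2.04), Bmp4 (1.23), Id1 (0.76), Smad6 (0.3) and Id4 (0.24), and the neighbours Smad5 and Id3, Bmpr2 and Id2, and Smad6 and Id4 overlapped. Bmp4 thus went from the third to the seventh place and Id2 from the last to the sixth. With the longest transcript as length, Smad1 stood above Smad5 at 24 h (9.03 against 7.17) and Id3 above Smad5 at 48 h (9.64 against 8.09), so those orders depend on the length used.

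**Figure D3:**
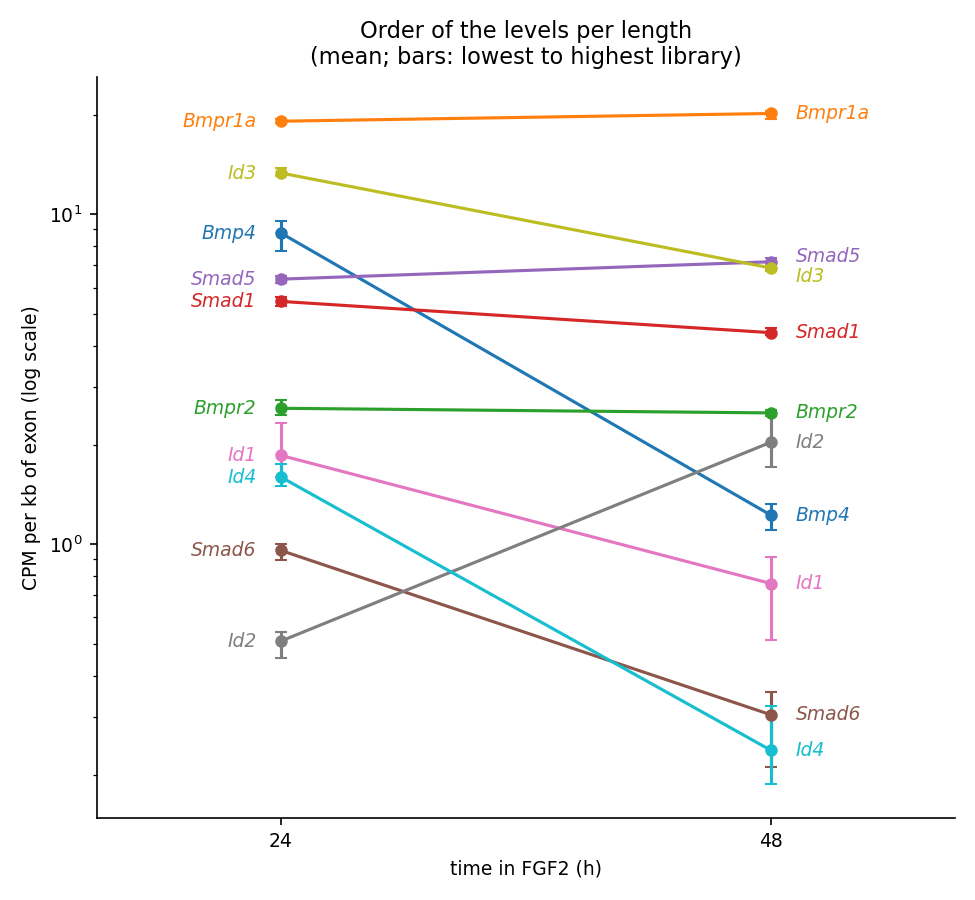
Mean level of each gene in CPM per kb of exon (log y axis) at 24 h and 48 h of FGF2 (x axis); bars run from the lowest to the highest of the 3 libraries. Bmpr1a, Bmpr2, Smad1 and Smad5 run nearly level, Bmp4, Smad6, Id1, Id3 and Id4 fall, and Id2 rises from 0.51 to 2.04.

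To place these 10 genes in their pathway, 66 further genes in 7 lists were read from the same fit. Of these, 38 had enough counts to be tested, and 22 changed, against 62.8% of all tested genes. They were 10 that rose and 12 that fell (8 and 15 when scaled by library size alone), against 30.9% and 31.9% of all tested genes. The other 16 did not pass, and the median log2FC of the 38 was -0.03. The 28 genes not tested had between 0 and 20 counts in a library. No list was tested as a set, so the counts in the short lists below give no direction for a list.

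Among the other ligands, 2 of 13 were tested and both fell, where 31.9% of all tested genes fell. Bmp7 had 5.61, 4.59 and 4.11 CPM at 24 h and 1.98, 2.24 and 2.57 CPM at 48 h (log2FC -1.07, SE 0.16, adjusted p = 2.15e-05). Bmp8a fell by 1.12 on this scale (adjusted p = 0.00407), on counts that were fractional in some libraries. With 14.8, 12.71 and 10 counts at 48 h, it would not have passed the filter on low counts on its 48 h libraries alone. It was still called with at least 10 counts required in every library (log2FC -1.12, adjusted p = 0.00157). Bmp8b, which was too low to test, was fractional in the same libraries, with 8.13 counts against 35.87 for Bmp8a in replicate 3 of 24 h. The Bmp8a counts may thus include reads divided with Bmp8b. No 48 h library of Bmp7 or Bmp8a reached the 24 h range.

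Of 9 other receptors and co-receptors, 8 were tested, 1 rose, 1 fell and 6 did not pass, where 30.9% of all tested genes rose and 31.9% fell. Acvr2b, a type II receptor shared with activin, had a mean of 27.1 ± 0.71 CPM and then 39.6 ± 1.73 (SD, n = 3), a rise of 0.55 on the log2 scale (adjusted p = 3.05e-08). Eng, a co-receptor, fell by 0.28 on the log2 scale (adjusted p = 1.69e-05), and its exons share 61 bases with Fpgs on the opposite strand. Acvr1, a type I receptor, had a log2FC of -0.02 with a 95% interval from -0.23 to 0.18.

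Of the 3 other SMADs, Smad7, an inhibitor like Smad6, had 55.9, 54.3 and 55.9 CPM at 24 h and 21.1, 23.7 and 21.3 CPM at 48 h. It fell by 1.33 (SE 0.05, adjusted p = 3.25e-13), so both inhibitory SMADs were lower in every 48 h library. Smad4, the common partner, rose by 0.09 (adjusted p = 0.0136), a call that was lost with library size scaling (log2FC 0.03, adjusted p = 0.347) and without replicate 1 of 24 h (0.079) or replicate 2 of 48 h (0.0601), within a range of 0.00774 to 0.347 over the alternatives. Smad9, with 5 to 16 counts in a library, was not called (log2FC -0.83, adjusted p = 0.0896), but was called without replicate 1 of 48 h (-1.18, adjusted p = 0.0484, range 0.0484 to 0.281 over the alternatives). It passed the filter on low counts only through its 24 h libraries, the group where it is high.

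Among 16 extracellular and membrane inhibitors and modulators, 6 were tested, 2 fell and 1 rose, against 31.9% and 30.9% of all tested genes. Bambi, a decoy receptor, had a mean of 14.1 ± 0.86 CPM and then 10.3 ± 1.22 (SD, n = 3), with a log2FC of -0.45 (adjusted p = 0.000481), and Fst, a secreted antagonist of activin and BMPs, fell by 0.34 (adjusted p = 0.000794). Fstl3, named for its place in the count though below the level set for examples, had 5, 1 and 11 counts at 24 h and 16, 16 and 13 at 48 h. It passed the filter on low counts only through its 48 h libraries, the group where it is high. Its log2FC of 1.36 (adjusted p = 0.0227) lost the call with DESeq2 and without any of 4 single libraries, replicates 1 and 2 of each time (adjusted p from 0.055 to 0.1, against a lowest value of 0.00535), and was 0.89 when replicate 2 of 24 h was left out and 2.16 when replicate 3 of that time was.

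All 9 intracellular regulators were tested, of which 3 rose and 4 fell, against 30.9% and 31.9% of all tested genes. Skil (SnoN), a SMAD co-repressor, went from 93.6 ± 5.62 to 272.5 ± 2.45 CPM (SD, n = 3), a log2FC of 1.54 (SE 0.03, adjusted p = 3.88e-16). Its relative Ski fell by 0.46 (adjusted p = 2.21e-09), so these co-repressor genes moved in opposite directions. Tob1, which binds SMADs and dampens BMP signalling, fell by 0.61 (adjusted p = 2.34e-08), and Ppm1a, a phosphatase that acts on SMADs, rose by 0.37 (adjusted p = 2.75e-08).

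Of 9 further genes known as BMP targets, 5 were tested, 2 fell and 1 rose, against 31.9% and 30.9% of all tested genes. Msx2, a homeobox gene, had 14, 24 and 28 counts at 24 h and 4, 2 and 5 at 48 h (log2FC -2.58, SE 0.43, adjusted p = 6.59e-05). It passed the filter on low counts only through its 24 h libraries, the group where it is high. With at least 10 counts required in every library it was not tested. Hey1 fell by 1.32 (adjusted p = 0.000959). Dusp9, a phosphatase of ERK that BMP signalling induces in embryonic stem cells, had a mean of 35.1 ± 1.82 CPM and then 39.5 ± 1.5 (SD, n = 3), a rise of 0.17 (adjusted p = 0.00493) that became 0.11 (adjusted p = 0.0545, the highest of its alternatives, down to 0.0022) under scaling by library size alone.

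Of the 7 genes for basic helix-loop-helix partners and competitors of ID proteins, 5 were tested, 3 rose and none fell. Of all tested genes, 30.9% rose and 31.9% fell. Tcf12 had 53.3, 51.9 and 53.7 CPM at 24 h and 69.4, 71.3 and 71.5 CPM at 48 h (log2FC 0.42, SE 0.03, adjusted p = 1.59e-08). Tcf3, which encodes the E proteins E12 and E47, rose by 0.15 (adjusted p = 0.000587). Neurod1, a neuronal factor, rose by 0.92 (adjusted p = 5.08e-06), on counts that were fractional in 1 library. Tcf4 had a log2FC of 0.04 (adjusted p = 0.209), which was -0.02 (adjusted p = 0.663, range 0.11 to 0.663) with library size as the only scaling.

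**Figure D4:**
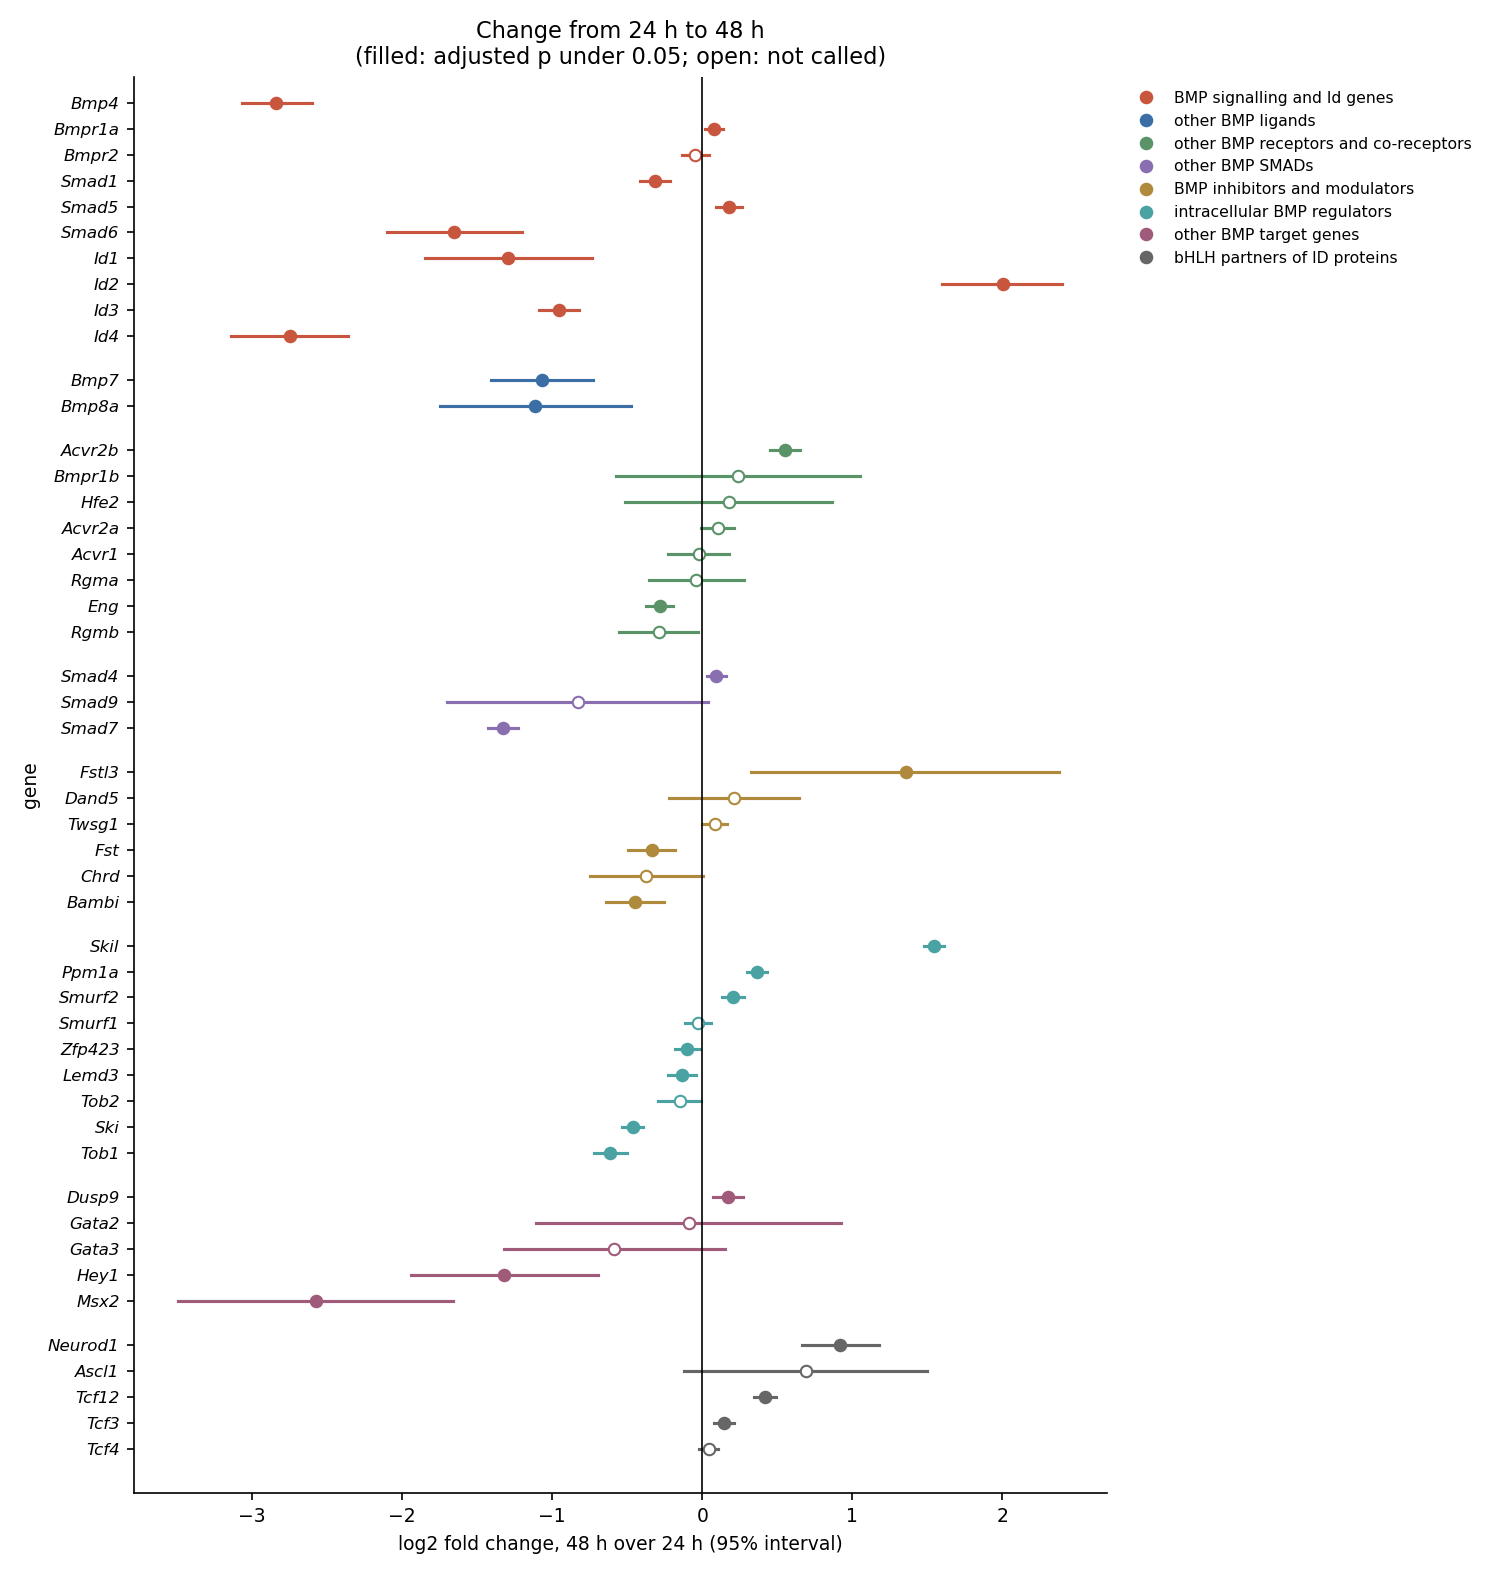
Log2FC, 48 h over 24 h (x axis), with its 95% interval for each tested gene of the pathway lists (y axis), coloured by list; filled points passed an adjusted p of 0.05 in edgeR's quasi-likelihood test. Among the 10 genes in red, Bmp4 and Id4 lie farthest to the left and Id2 farthest to the right.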

How the data were processed

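Total RNA was turned into mRNA libraries (KAPA mRNA HyperPrep), per the labels' protocols. The authors deposited expected counts per gene, estimated with RSEM and not scaled for depth or length. The submitters' processing notes name cutadapt 1.9.1, STAR 2.5.2, RSEM 1.3.0 and build GRCm38, while the annotation and the use of strand are not given in the sources used here. Columns were matched to samples by title, with 0 columns left over. A reference table of gene names gave symbols for 51633 of 51912 identifiers. Positions and exon lengths come from GENCODE M21, which is also on GRCm38.

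Estimated counts were rounded, filtered with filterByExpr (minimum count 10), scaled by TMM and tested for the difference between times by edgeR's quasi-likelihood test (version 4.0.16, under R 4.3.3) with no covariate. P-values were adjusted by Benjamini-Hochberg over all 14889 genes tested, and a gene was called where this value was below 0.05. The SE is the size of the log2 fold change divided by the square root of F, and intervals are at 95%. CPM uses TMM-scaled totals, and the level per length divides it by the union of exons in kb. The scripts were tested on simulated data in which 100 genes changed by 0.5 on the log2 scale and 100 by 1. Of these, 63 and 86 were recovered, and 12 of the 161 genes called were unchanged ones. Far fewer genes changed there than were called here, so scaling under such wide change was not tested.

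Alternatives were RLE or library size scaling, 2 other filters, DESeq2 1.42.0, limma voom 3.58.1, unrounded counts, a replicate block, a threshold of 0.01 and leaving out each library. The 10 genes and the lists were chosen with earlier results of these data known. All 10 genes are named, and from each other list at most 4 called genes, those with the largest fold changes among genes with at least 1 CPM at either time; Acvr1, Smad9, Tcf4 and Fstl3 were named after their values were seen. Replicates are separate samples in the labels, which do not say whether they were separate cultures, so p-values measure the spread between these libraries, which may be technical. Pairs of replicates differed by more than counting noise (chi-square per degree of freedom 1.82 to 2.22). Promoter sequences are from RefSeq (GRCm38.p6).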

Additional observations from a re-analysis of the deposited data

How the results depend on the processing

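The number of the 10 genes called was 8 or 9 in all 15 alternatives, the number of other pathway genes called lay between 18 and 24 (22 in the fit reported), and the number over all genes between 7810 and 9792. Leaving out 1 library gave 8 to 9, 19 to 23 and 8737 to 8904. Of 150 values of single genes among the 10, 142 kept direction and call; 7 lost the call, all of them Bmpr1a, 1 gained it (Bmpr2, library size scaling), and 0 reversed. Of 563 values of other pathway genes, 523 kept both, 21 lost the call, 10 gained it and 9 reversed, none of them in a called gene. The reversals were Acvr1 (-0.12 to 0.0601 over the fits without 1 library, 0.0216 without replicate 2 of 24 h), Rgma (-0.0836 to 0.0227, 0.0044 without replicate 1 of 24 h), Hfe2 (-0.00289 to 0.33), Smurf1 (-0.0477 to 0.00397, the latter without replicate 2 of 48 h), Gata2 (-0.40 to 0.319, 0.106 without replicate 2 of 24 h) and Tcf4 (-0.0161 with library size scaling). The cause was not tested. With the replicate block 9235 genes changed, 9 of the 10 genes and 22 of the other pathway genes among them. Deviations of same-numbered libraries correlated at -0.05, -0.04 and -0.01, which does not pair them, and 0 of the 3 correlated best with its own number. The pathway lists are incomplete at their low end, where 28 of 66 genes were too low to test.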
